A study of Mus musculus with 6 samples.

Results

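The genes described here are those of the proteasome and its assembly and activating factors in cultured mouse cochleae, with and without neomycin. They were found by symbol: the letters Psm followed by a, b, c, d, e, f or g and a number, with pseudogenes left out. The rule found 50 genes among the 24421 symbols of the count table, and 48 of them passed the filter on low counts that left 15988 genes for testing. The remaining members were hardly detected: Psma8, the alpha subunit of the testis, had 2 to 19 reads per sample, and Psmb11, the beta subunit of the thymus cortex, had 0 to 6. Psmc3ip matches the rule by its name only, since it encodes a recombination factor and no part of the proteasome, and it is counted with the members but not assigned to a subunit class.

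The proteasome is the protease that degrades most ubiquitin-tagged proteins. Its core is a barrel in which outer rings of alpha subunits (Psma genes) gate the entrance and inner rings of beta subunits (Psmb genes) hold the catalytic sites, while the cap (Psmc and Psmd genes) binds ubiquitin, removes it and unfolds the substrate with its ATPases. Interferon replaces the catalytic subunits Psmb6, Psmb7 and Psmb5 with Psmb9, Psmb10 and Psmb8 to form the immunoproteasome, the Psme genes encode alternative activators of the core, and the Psmg genes encode chaperones that build it. When proteasome activity is insufficient, the transcription factor NRF1 (Nfe2l1) raises the subunit genes together.

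The samples were 3 control and 3 neomycin pools of wild-type cochlear explants, each pool of 6 to 8 cochleae from mice at postnatal day 2. Neomycin, an aminoglycoside antibiotic that kills hair cells, was given at 1 mM during 6 h following 12 h in culture, and the explants were then kept for 5 days in medium that held 10 µM EdU, a label of DNA synthesis. The description of growth names neomycin for all 6 samples, so that the control group rests on the treatment label, and the stria vascularis anlage, modiolus and tectorial membrane had been removed. The labels do not say whether the pools of a group came from separate litters or days, so p-values measure the spread between these pools only.

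The libraries held between 50471116 and 66068108 counted reads. Markers of hair cells behaved as the labels say, with 9 of 10 lower after neomycin and a summed level of 214.5 to 270.0 CPM (read counts scaled to the library size) against 679 to 789 in control. Of 10 supporting cell markers none was at 0 in any sample, 5 were lower and 1 was higher; this was S100a1, which carried most of their summed level of 2019 to 2436 CPM in control and 2611 to 2778 CPM in neomycin. Markers of endothelium (6 of 8) and of neurons (4 of 9, with 1 higher) were also lower. Of all tested genes 16.1% were lower and 12.9% higher. The summed level of the endothelial markers overlapped, at 279.3 to 313.5 CPM in control and 266.4 to 316.6 CPM in neomycin. Emcn, which carried most of it, was not called (0.12, adjusted p = 0.329). That of the neuronal markers overlapped too, at 235.7 to 323.4 CPM in control and 218.8 to 241.9 CPM in neomycin. Of 10 macrophage markers 5 were higher, with a summed level of 134.6 to 167.7 CPM against 94.1 to 123.9. In bulk tissue, fewer cells of a type and less RNA per cell cannot be told apart, and the part of these shifts in the results below was not tested.

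Most proteasome genes were slightly higher after neomycin as counted, with 43 of 48 log2 fold changes above 0, and most of the calls were lost when the general trend of fold change with gene length was removed, which left 7 higher and 1 lower member. By edgeR's quasi-likelihood test with Benjamini-Hochberg adjustment over all tested genes, 27 of the 48 rose at an adjusted p under 0.05, where 12.9% of all tested genes rose. None fell at that threshold, where 16.1% of all genes fell; at an unadjusted p under 0.05 there were 2 lower members, Psme3 and Psme4, and DESeq2 and limma-voom also called 0. The changes were small: none of the members passed the additional limit of 1.5-fold, which 2.24% of all genes passed upward and 6.6% downward, and at an unadjusted p under 0.05 the count past that fold was 0 as well. DESeq2 put 1 member, Psmg2, past that limit and limma-voom put 0. The median log2 fold change was 0.26 over the 48 members and -0.0041 over all tested genes. In 32 members all neomycin samples lay above all control samples (21.0% of all tested genes), in 3 they lay below (22.5%), and in 13 the groups overlapped.

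The number of calls changed when single pools were left out. Each such fit has a pool fewer, and the share of all tested genes called in it is not given. Whether the change is particular to these members was not tested. Without control 1 there were 15 higher members, without control 2 there were 12, without neomycin 2 there were 11 and without neomycin 3 there were 13, against 33 without control 3 and 25 without neomycin 1. 11 of the 27 kept the call in every one of these 6 fits: Psma4, Psma5, Psmb3, Psmb6, Psmb10, Psme1, Psme2, Psme2b, Psmg1, Psmg2 and Psmg3. Of these 11 only Psme2 and Psmg2 were still called after the gene length correction described further on. Psma4, Psma5, Psmb3, Psme2 and Psme2b also share over 10% of their 50-base windows with other genes, so that their counts are uncertain. The direction was steadier than the call, since only Psmd2 and Psmf1, both near 0, changed sign when a pool was left out.

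**Figure D1:**
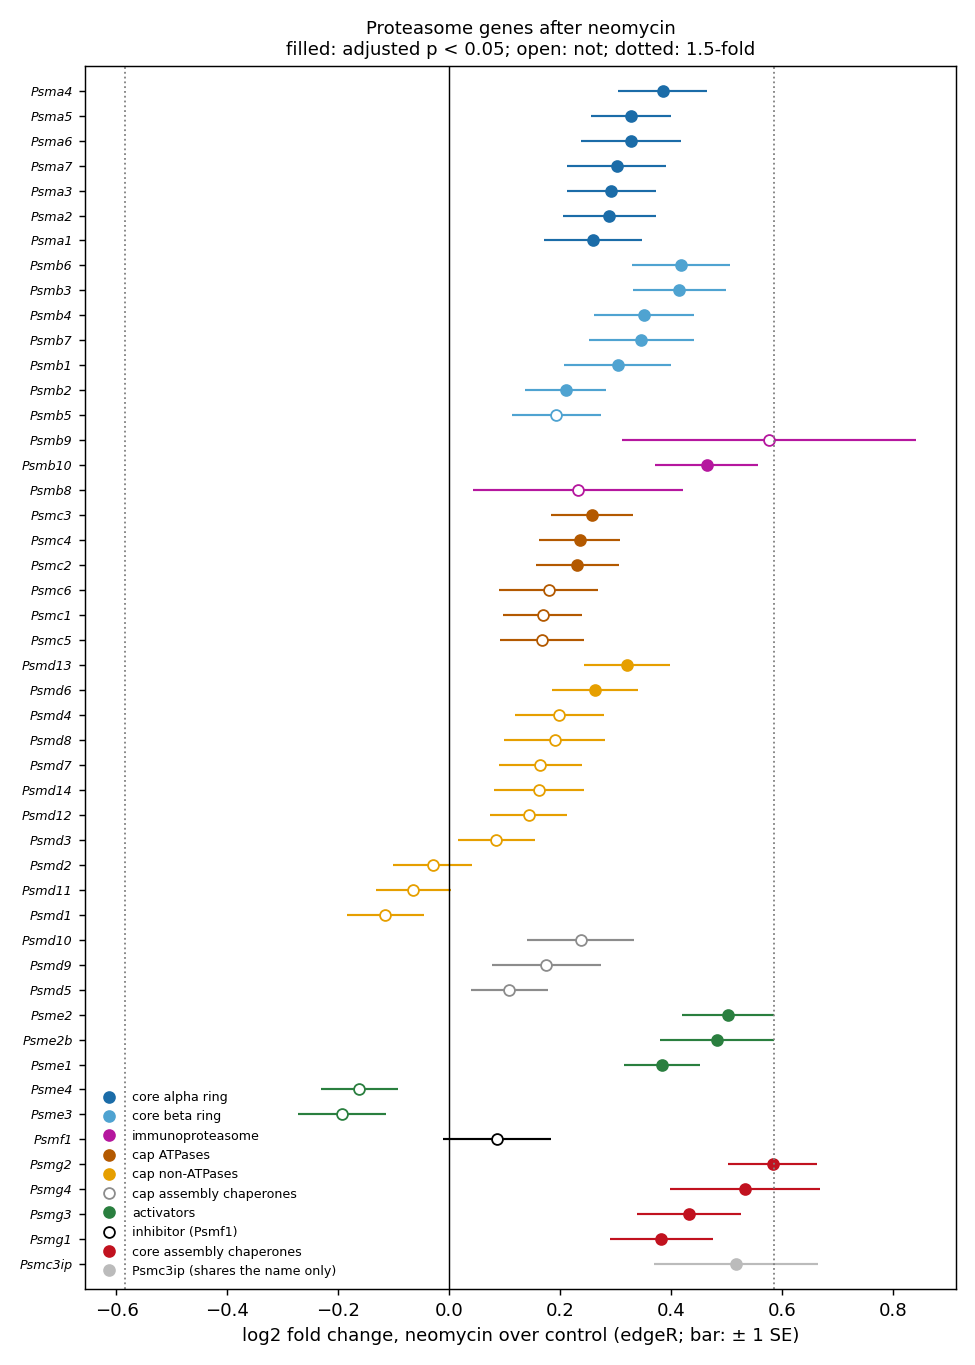
Log2 fold change of neomycin over control for the 48 tested members, ordered by subunit class, with bars of 1 standard error from edgeR; filled points passed an adjusted p of 0.05 and dotted lines mark 1.5-fold. All 14 tested core subunits lie to the right of 0, the cap subunits reach from -0.12 (Psmd1) to 0.32 (Psmd13), and Psme3 and Psme4 lie to the left, apart from the other activators.

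RefSeq promoter windows of 300 bases, from 250 before to 50 after the annotated start on the build GRCm38.p6, were found for 42 of the 50 members. Where a gene had windows for several starts, only the window listed first was used, and the other starts were not searched. The windows of some members, Psmb8, Psmb9, Psmd13 and Psme1 among them, lie wholly inside the gene as GENCODE annotates it. The windows were searched on both strands for sites of factors known to act on these genes, with letters chosen when the changes were known. The core letters of the antioxidant response element (TGACNNNGC), which NRF1 binds with small Maf proteins, occurred in 6 of the 42 (14.3%) against 12.5% of all genes with a window. The interferon regulatory factor repeat (GAAANNGAA) occurred in 6 (14.3%) against 8.57%, the gamma-activated site (TTCNNNGAA) in 3 (7.14%) against 8.47% and the CCAAT box in 15 (35.7%) against 37.9%. The core letters of ETS family sites (CCGGAAG) occurred in 14 (33.3%) against 9.12%. It was spread unevenly: 0 of 15 windows of core and immunoproteasome genes held it, against 9 of 14 windows of cap subunits. It was in 2 of 5 windows of activators (Psme3 and Psme4), 2 of 3 of core chaperones and 0 of 3 of cap chaperones. Psmc3ip held it and Psmf1 did not. Psmb1, Psmb2 and Psmb7 of the beta ring are among the members without a window.

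Windows are printed 5′ to 3′ in the direction of the gene for Psmb5 and Psmb6, the tested core genes with the lowest and the highest change, for Psmd13, the cap subunit with the highest change, and for Psme1 and Psme4, activators that lay on opposite sides of 0. Capitals mark letters of the antioxidant response element, interferon regulatory factor repeat, gamma-activated site or ETS core, on either strand.
Psmb5, chr14:54617946-54618245, minus strand: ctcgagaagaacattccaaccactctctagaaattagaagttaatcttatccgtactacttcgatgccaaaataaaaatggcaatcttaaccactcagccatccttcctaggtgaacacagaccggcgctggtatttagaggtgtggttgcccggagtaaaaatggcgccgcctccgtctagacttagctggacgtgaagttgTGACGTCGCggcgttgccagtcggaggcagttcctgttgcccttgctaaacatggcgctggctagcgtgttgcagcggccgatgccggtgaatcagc
Psmb6, chr11:70525107-70525406, plus strand: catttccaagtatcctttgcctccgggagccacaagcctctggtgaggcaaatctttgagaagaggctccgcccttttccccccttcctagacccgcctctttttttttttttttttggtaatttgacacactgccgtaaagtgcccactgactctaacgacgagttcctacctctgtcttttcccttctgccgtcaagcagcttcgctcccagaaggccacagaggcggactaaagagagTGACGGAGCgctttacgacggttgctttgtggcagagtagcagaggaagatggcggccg
Psmd13, chr7:140882144-140882443, plus strand: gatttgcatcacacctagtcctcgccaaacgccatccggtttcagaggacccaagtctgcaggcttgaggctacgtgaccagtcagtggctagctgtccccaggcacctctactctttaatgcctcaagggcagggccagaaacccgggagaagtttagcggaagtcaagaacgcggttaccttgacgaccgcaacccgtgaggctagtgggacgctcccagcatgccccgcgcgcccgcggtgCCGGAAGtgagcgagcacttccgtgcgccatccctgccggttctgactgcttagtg
Psme1, chr14:55578244-55578543, plus strand: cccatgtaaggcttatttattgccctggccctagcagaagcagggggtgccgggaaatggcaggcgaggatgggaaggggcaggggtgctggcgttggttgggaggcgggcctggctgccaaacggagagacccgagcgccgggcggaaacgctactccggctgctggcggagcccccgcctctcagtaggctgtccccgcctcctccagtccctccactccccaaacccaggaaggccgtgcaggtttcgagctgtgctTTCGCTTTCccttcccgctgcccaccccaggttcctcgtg
Psme4, chr11:30771525-30771824, plus strand: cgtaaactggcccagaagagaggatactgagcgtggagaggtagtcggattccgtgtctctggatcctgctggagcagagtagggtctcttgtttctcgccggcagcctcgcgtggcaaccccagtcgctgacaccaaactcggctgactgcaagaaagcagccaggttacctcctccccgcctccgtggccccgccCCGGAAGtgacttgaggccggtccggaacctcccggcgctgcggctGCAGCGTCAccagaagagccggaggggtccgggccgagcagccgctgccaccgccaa

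Psmb5 and Psmb6 are the only windows of the core and immunoproteasome with the antioxidant response element letters, which begin at -47 in Psmb5 and at -9 in Psmb6, counted from 0 at the start. These are the core genes with the lowest and the highest change as counted. After the gene length correction described further on, Psmb6 was at 0.07. Psmb1, which has no window, was then the highest core gene at 0.33. A link between the letters and the changes was not tested. In Psmd13 the capitals are an ETS core that begins at -6. In Psme1 they are an interferon regulatory factor repeat on the opposite strand that begins at 10, past the start used for this window. Psme4 holds an ETS core at -53 and antioxidant response element letters on the opposite strand at -7. A match of letters does not show that a factor was bound.

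As counted, the core rose almost in full. All 7 tested alpha ring genes and 6 of the 7 beta ring genes were called higher, with a median log2 fold change of 0.32 over the 14. With the gene length correction described further on, 3 of the 14 were called higher and the median was 0.07. In the alpha ring the changes ran from 0.26 (SE 0.09) for Psma1 to 0.38 (SE 0.08) for Psma4.

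Psma4 measured 132.5, 131.6 and 148.4 CPM in control and 164.7, 186.6 and 187.1 CPM in neomycin (adjusted p = 0.00446). Its groups did not overlap. Psma1 measured 152.6, 166.1 and 183.6 CPM in control and 181.6, 206.7 and 212.6 CPM in neomycin (adjusted p = 0.0438), so that the lowest neomycin pool lay under the highest control pool, and its call was lost without any of 4 of the pools (control 1, control 2, neomycin 2 and neomycin 3).

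In the beta ring the highest and the lowest change both fell on catalytic subunits. Psmb6, which carries the caspase-like site, measured 175.8, 181.1 and 210.6 CPM in control and 232.9, 257.1 and 268.3 CPM in neomycin, a log2 fold change of 0.42 (SE 0.09, adjusted p = 0.00473). Psmb7, the trypsin-like subunit, measured 129.7, 132.0 and 153.4 CPM in control and 157.9, 172.8 and 196.8 CPM in neomycin, a log2 fold change of 0.35 (SE 0.09, adjusted p = 0.0168). Neither overlapped between groups, although the call of Psmb7 was lost without control 2, neomycin 2 or neomycin 3. Psmb5, the chymotrypsin-like subunit and the main target of proteasome inhibitor drugs, measured 106.6, 109.8 and 124.9 CPM in control and 123.8, 127.9 and 138.3 CPM in neomycin, a log2 fold change of 0.19 (SE 0.08, adjusted p = 0.0895). It was the only tested core gene without a call, its groups overlapped, and 54.1% of the 50-base windows in its exons also occur in other genes of the annotation, so that its count is uncertain.

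The mean over the core genes, relative to the control mean on the log2 CPM scale, was -0.10, -0.03 and 0.13 in the controls and 0.21, 0.34 and 0.40 in the neomycin pools. The highest control pool and the lowest neomycin pool were thus closer to each other than to some pools of their own group. Control 1 was lowest and control 3 highest in the core, in both cap classes and in the core chaperones, and neomycin 1 was the lowest neomycin pool in each of them.

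**Figure D2:**
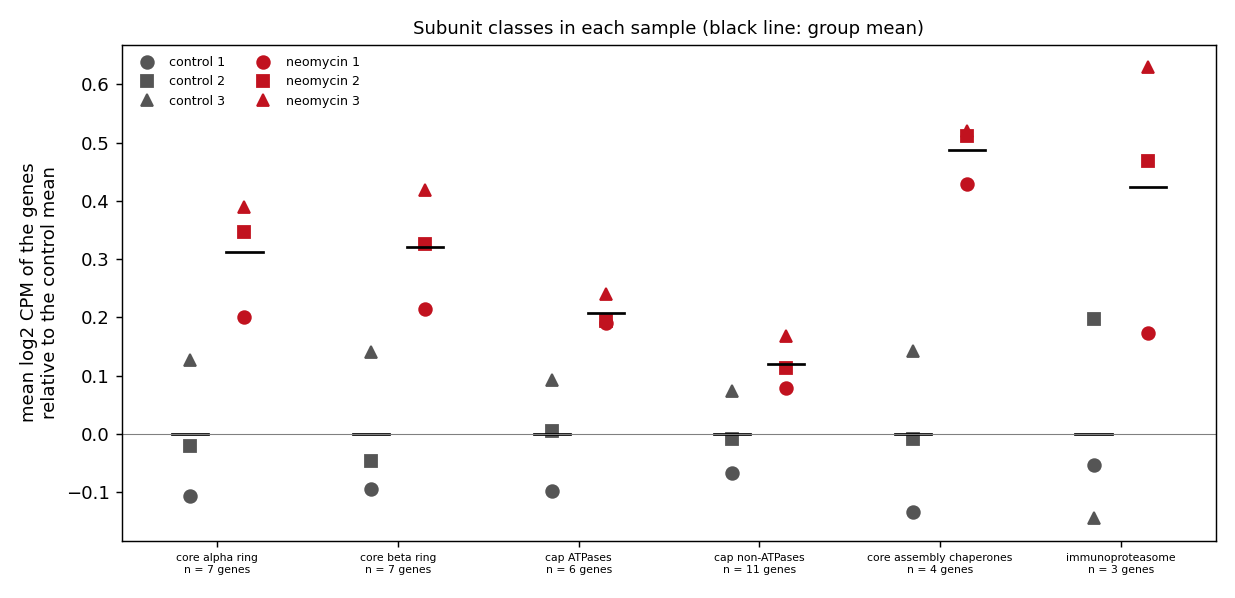
Mean log2 CPM of the genes of each class in each pool, relative to the mean of the controls; symbols mark the pool number, colours the group and black lines the group means. Core and core chaperone genes separate the groups, the cap non-ATPases do so by little (0.07 in control 3 against 0.08 in neomycin 1), and the 3 immunoproteasome genes overlap.

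The cap had fewer calls than the core. Of its 17 subunits 5 rose and none fell, and the median log2 fold change was 0.17 against 0.32 in the core; the difference between the classes was not tested. The 6 ATPases of the unfolding ring lay close together, from 0.17 (SE 0.08) for Psmc5 to 0.26 (SE 0.07) for Psmc3, and Psmc2, Psmc3 and Psmc4 were called. Psmc3 measured 185.7, 182.3 and 199.5 CPM in control and 219.4, 221.2 and 237.8 CPM in neomycin (adjusted p = 0.0208). Psmc5 measured 85.6, 89.2 and 98.2 CPM in control and 103.8, 96.2 and 106.7 CPM in neomycin (adjusted p = 0.117). The groups overlapped for Psmc5 and not for Psmc3.

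The 11 non-ATPase subunits spread more widely, with a median of 0.16. Psmd13, a scaffold subunit of the lid, measured 110.1, 113.4 and 123.0 CPM in control and 133.1, 146.5 and 152.8 CPM in neomycin, a log2 fold change of 0.32 (SE 0.08, adjusted p = 0.00941), with no overlap; the call was lost without neomycin 2. Psmd6 (0.26) was the other called subunit. The lowest was Psmd1, the large scaffold of the base that docks ubiquitin receptors, with 133.5, 122.2 and 125.6 CPM in control and 119.2, 112.4 and 120.5 CPM in neomycin. Its log2 fold change was -0.12 (SE 0.07, adjusted p = 0.236), and all neomycin pools lay below all controls. Psmd2, the other large scaffold of the base, gave -0.03 (adjusted p = 0.78) and Psmd11 gave -0.06 (adjusted p = 0.502), so that the cap held members on both sides of 0. Psmd14, the deubiquitinase of the lid, gave 0.16 (adjusted p = 0.152), and Psmd4, a ubiquitin receptor, gave 0.20 (adjusted p = 0.08).

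The cap chaperones Psmd5, Psmd9 and Psmd10, which hold the ATPases before the ring closes, were not called. They ran from 0.11 (SE 0.07, adjusted p = 0.259) for Psmd5, at 55.8, 58.6 and 62.3 CPM in control and 63.0, 64.0 and 63.5 CPM in neomycin, to 0.24 (SE 0.10, adjusted p = 0.0855) for Psmd10, at 20.6, 20.7 and 19.1 CPM in control and 21.9, 22.7 and 26.6 CPM in neomycin.

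All 4 chaperones of the core rose as counted, with a median log2 fold change of 0.48. Psmg2, which works as a dimer with Psmg1 to assemble the alpha ring, had the largest log2 fold change of any member, 0.58 (SE 0.08, adjusted p = 0.000356), just under the 1.5-fold limit at a log2 value of 0.585. It measured 22.8, 23.4 and 24.9 CPM in control and 35.2, 34.3 and 36.9 CPM in neomycin, and the gap between the groups was wider than the range of either. Its partner Psmg1 had the lowest change of the class, 0.38 (SE 0.09, adjusted p = 0.00972), at 18.0, 18.9 and 21.2 CPM in control and 24.0, 25.2 and 26.6 CPM in neomycin. Psmg3 (0.43) and Psmg4 (0.53), the second chaperone dimer, also rose, and the call of Psmg4 was lost without control 2 or neomycin 2. Pomp, the maturation factor that acts after these chaperones and is no member by the rule, rose as well (0.40, SE 0.08, adjusted p = 0.00395).

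The activators split by family member. Psme1 and Psme2, the interferon-inducible subunits that form the PA28 alpha-beta ring, rose, whereas Psme3, the nuclear PA28 gamma, and Psme4, the single-chain activator PA200, had negative log2 fold changes that did not pass the threshold. Psme1 measured 79.8, 82.8 and 86.9 CPM in control and 104.1, 110.9 and 110.4 CPM in neomycin, a log2 fold change of 0.38 (SE 0.07, adjusted p = 0.00197). Psme2 measured 58.1, 58.5 and 68.4 CPM in control and 81.0, 91.0 and 90.0 CPM in neomycin, a log2 fold change of 0.50 (SE 0.08, adjusted p = 0.00116). The groups lay well apart for both genes, which sit close together on opposite strands of mm10 (Psme1 at chr14:55578123-55581529, Psme2 at chr14:55587441-55591113). Psme2b, a copy of Psme2 with a single exon block, gave 0.48 (adjusted p = 0.00503), but 69.3% of its windows are shared with other genes, mainly Psme2, and the counts of these genes may be split between them.

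Psme3 measured 77.0, 75.1 and 74.4 CPM in control and 72.5, 66.3 and 59.2 CPM in neomycin, a log2 fold change of -0.19 (SE 0.08, adjusted p = 0.086). Psme4 measured 136.0, 149.7 and 141.0 CPM in control and 125.3, 125.6 and 130.2 CPM in neomycin, a log2 fold change of -0.16 (SE 0.07, adjusted p = 0.0963). For both genes all neomycin pools lay below all controls. As a level per kb of exon, the log2 ratio of Psme1 to Psme3 was 1.31, 1.40 and 1.49 in control and 1.78, 2.00 and 2.16 in neomycin, and that of Psme2 to Psme4 was 1.51, 1.38 and 1.69 in control and 2.10, 2.27 and 2.20 in neomycin. The mean differences between the groups were 0.58 and 0.67. With the gene length correction described further on, Psme1 (0.10, adjusted p = 0.242) lost its call, Psme2 (0.19) kept it, Psme3 was at -0.24 and Psme4, the longest member, turned to 0.05, so that the differences came down to 0.34 for Psme1 against Psme3 and 0.14 for Psme2 against Psme4. The ratios were formed with the changes of the genes known and are given without a test.

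**Figure D3:**
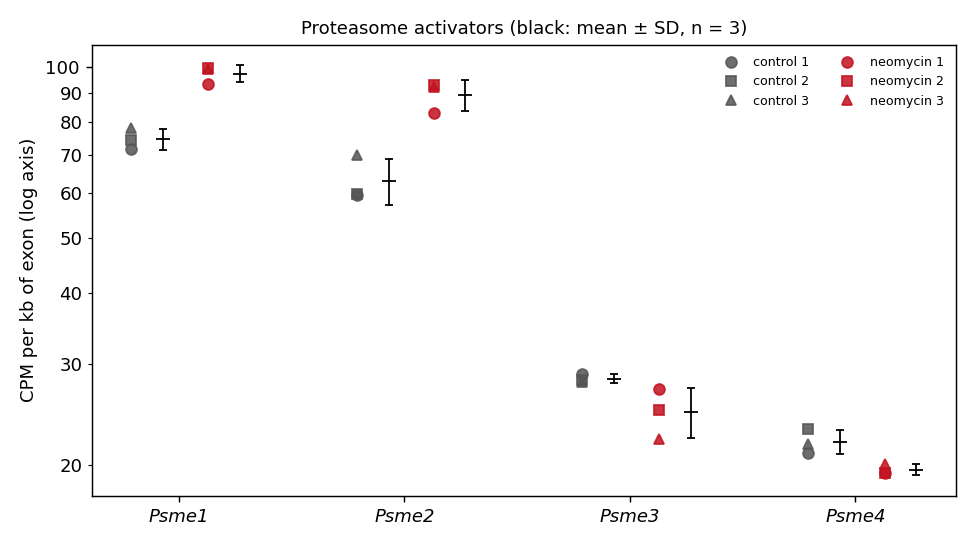
Levels of 4 activator genes in CPM per kb of exon on a log axis, with each pool as a point and the mean with SD (n = 3) in black. Psme1 and Psme2 are higher in every neomycin pool than in any control, and Psme3 and Psme4 are lower in every neomycin pool.

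Psmf1, which encodes an inhibitor that binds the core, was level in control at 31.7, 31.5 and 32.0 CPM. In neomycin it measured 39.2, 30.9 and 31.0 CPM, so that its log2 fold change of 0.09 (SE 0.10, adjusted p = 0.54) came from neomycin 1 alone; without that pool it was -0.0356. Psmc3ip, the recombination factor that shares the name, measured 4.29, 5.14 and 5.41 CPM in control and 6.70, 6.80 and 7.71 CPM in neomycin (0.52, SE 0.15, adjusted p = 0.0212), and its call was lost without control 1, control 2, neomycin 2 or neomycin 3.

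The immunoproteasome subunits were scarce and only 1 of the 3 was called. Psmb10 measured 17.4, 18.4 and 17.9 CPM in control and 22.7, 24.4 and 27.1 CPM in neomycin, a log2 fold change of 0.46 (SE 0.09, adjusted p = 0.00345). Psmb9 measured 1.68, 2.17 and 1.14 CPM in control and 2.24, 2.54 and 2.64 CPM in neomycin, a log2 fold change of 0.58 (SE 0.26, adjusted p = 0.121), from 64 to 150 reads. Psmb8 measured 6.87, 8.49 and 8.15 CPM in control and 6.35, 9.59 and 11.6 CPM in neomycin, a log2 fold change of 0.23 (SE 0.19, adjusted p = 0.382). The groups overlapped for Psmb8 only, and its lowest and its highest value both came from neomycin pools. Psmb8 (chr17:34197721-34201454) and Psmb9 (chr17:34181987-34187764) lie near each other on mm10 and share exon sequence with genes on the opposite strand (Psmb9 with Tap1), and the strand setting of the counting is not given in the sources used here. Of the 10 macrophage markers given above 5 were called higher as counted. After the gene length correction described further on, C1qa (adjusted p = 0.0642) and C1qb (adjusted p = 0.244) lost the call. Cd68, C1qc and Tyrobp kept it. The part of macrophages in the immunoproteasome values was not tested.

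On the scale of CPM per kb of exon the standard catalytic subunits exceeded their replacements in every pool. The control ratio was 26.4 for Psmb5 over Psmb8, 211 for Psmb6 over Psmb9 and 8.72 for Psmb7 over Psmb10. The 3 immunoproteasome subunits made up 3.94% ± 0.399 (SD, n = 3) of the level of all 6 catalytic subunits in control and 4.11% ± 0.215 in neomycin. The single pools gave 3.996%, 4.32% and 3.52% in control and 3.89%, 4.13% and 4.31% in neomycin, so that the groups overlapped and the difference was smaller than the spread between pools.

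With 3 against 3 pools an exact test of the pairwise log2 ratios cannot go below p = 0.1, so that it could not pass 0.05 whatever the values. Neomycin minus control was -0.0026 for Psmb8 over Psmb5 (exact two-sided permutation p = 1.0), 0.20 for Psmb9 over Psmb6 (exact p = 0.7) and 0.12 for Psmb10 over Psmb7 (exact p = 0.2). Adjusted over the 3 ratios the p-values were 1.0, 1.0 and 0.6. The ratio of Psmb10 to Psmb7 in the controls was -3.07, -3.02 and -3.27 and in the neomycin pools -2.98, -3.00 and -3.04 on the log2 scale, with an overlap of the groups.

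**Figure D4:**
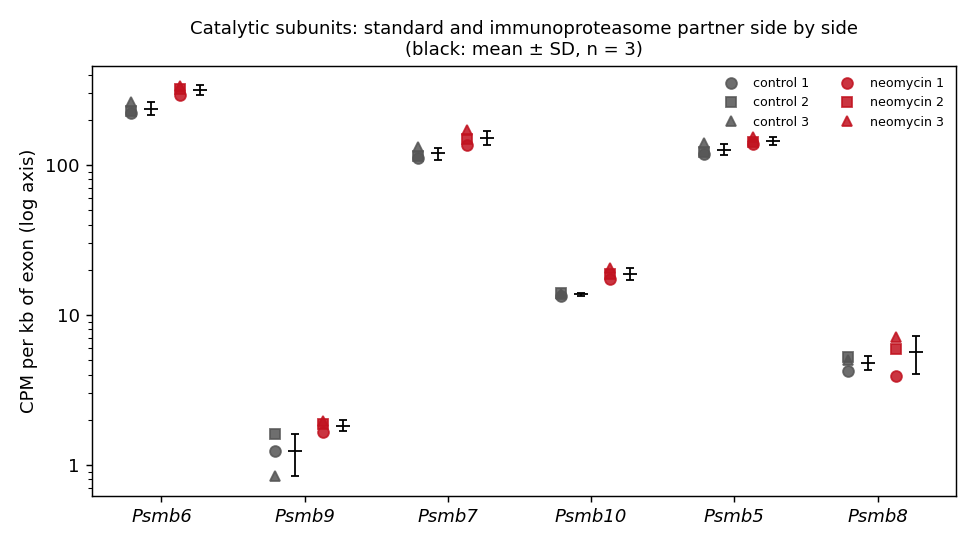
Levels of the 3 standard catalytic subunits, each beside the subunit that replaces it in the immunoproteasome, in CPM per kb of exon on a log axis, with the pools as points and mean with SD (n = 3) in black. Psmb10 is the most abundant of the replacements, at 13.7 in control, and Psmb9 the least, at 1.23.

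The subunits of the core and the cap enter the particle in equal numbers, but their levels per kb of exon varied widely. In control the alpha ring genes ran from 36.2 (Psma3) to 141 (Psma7), the beta ring genes from 59.7 (Psmb1) to 237 (Psmb6), the ATPases from 51.7 (Psmc2) to 92.5 (Psmc3) and the non-ATPases from 20.3 (Psmd11) to 92.8 (Psmd8). Exon length was taken as the union of all annotated exons, which exceeds the median transcript for Psma3 (2846 against 1852 bases) and Psmb1 (3427 against 1758 bases) and gives them a lower level than the transcript length would. The core chaperones were found at 16.4 to 23.1 and the cap chaperones at 13.0 to 13.7, below every core subunit.

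The members are short genes. Their median exon length was 1454.5 bases over the 48 members against 3214 bases over all tested genes, and across the transcriptome shorter genes had higher log2 fold changes. Across the 48 members the log2 fold change and the log exon length had a Pearson correlation of -0.72 and a Spearman correlation of -0.72, and across 15858 genes these were -0.33 and -0.48. Genes are not independent replicates, since all come from the same 6 libraries, so these are descriptions. The 5 members with a negative log2 fold change have 2664 (Psme3) to 6491 (Psme4) bases of exon, but length did not separate them from the rest: Psmd5 (4397 bases, 0.11), Psmf1 (3993 bases, 0.09) and Psmb1 (3427 bases, 0.30) are long as well.

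Removing the trend with exon length from each sample ended most calls. With this correction 7 members were higher (Psma2, Psma3, Psmb1, Psmd5, Psmd13, Psme2 and Psmg2), against 9.51% of all genes, and 1 was lower (Psme3, -0.24, adjusted p = 0.04), against 11.0%. The member median fell to 0.08, that of the core to 0.07, that of the cap to 0.02 and that of the core chaperones to 0.12. Psmg2 kept 0.34 (adjusted p = 0.00507) and Psme2 kept 0.19 (adjusted p = 0.0287). Psmb6 gave 0.07 (adjusted p = 0.407), Psme1 gave 0.10 (adjusted p = 0.242) and Psmb10 gave 0.22 (adjusted p = 0.0812), none of which passed. Psma2, Psma3 and Psmb1 have long annotated exons for their class, and with the median transcript length of each gene in place of the exon union the higher members numbered 6 (Psma2, Psma3, Psmb10, Psmd5, Psme2 and Psmg2), against 8.76% of all genes, and the lower ones 0, against 10.9%, by edgeR. Psma2, Psma3, Psmd5, Psme2 and Psmg2 were thus called under both corrections. Whether the trend with length belongs to the RNA or to the libraries was not tested.

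**Figure D5:**
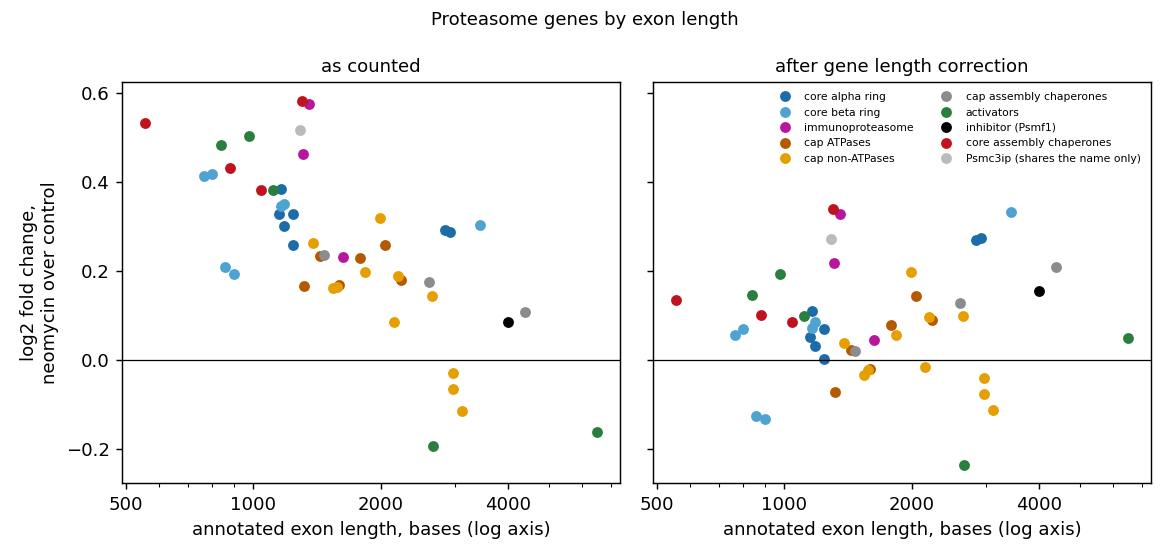
Log2 fold change of the 48 tested members against their annotated exon length in bases on a log axis, as counted on the left and after the gene length correction on the right, with colours for the subunit classes. The fall from short to long genes on the left (Pearson -0.72) is gone on the right (0.06), where most points lie between -0.1 and 0.2 and Psmg2, Psmb1 and Psmb9 are the highest.

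Genes that work with the proteasome or control its genes were called in both directions. Of 17 tested associated factors 3 rose (Shfm1, which encodes the small lid subunit SEM1, Pomp and Akirin2, which brings proteasomes into the nucleus) and 1 fell (Ube3a); these shares, 17.6% and 5.88%, stand beside 12.9% and 16.1% of all tested genes. Of the 11 genes of transcriptional control 1 rose (9.09%) and 5 fell (45.5%). Nfe2l1 itself gave -0.13 (SE 0.07, adjusted p = 0.188), at 333.5, 314.1 and 321.5 CPM in control and 303.2, 293.6 and 287.5 CPM in neomycin. Ddi2, the protease that cleaves NRF1 into its active form, fell by 1.02 on the log2 scale (SE 0.19, adjusted p = 0.00236), from 12.1, 11.3 and 8.74 CPM in control to 6.61, 5.39 and 3.82 CPM in neomycin. Ngly1, the enzyme that removes sugars from NRF1 before this step, rose by 0.37 (SE 0.08, adjusted p = 0.00637). The small Maf partners Mafg (-0.75, adjusted p = 0.00185), Maff (-0.77, adjusted p = 0.0156) and Mafk (-0.28, adjusted p = 0.0293) all fell, and so did Nfe2l3 (-0.44, adjusted p = 0.0138). After the gene length correction Ddi2 (-0.74, adjusted p = 0.0062), Mafg (-0.59, adjusted p = 0.00488), Maff (-0.84, adjusted p = 0.00821), Nfe2l3 (-0.48, adjusted p = 0.00725) and Ngly1 (0.36, adjusted p = 0.00622) were still called and Mafk (-0.24, adjusted p = 0.0641) was not. Pomp was then at 0.54 (adjusted p = 0.00126) and Shfm1 at 0.29 (adjusted p = 0.014), while Akirin2 (0.018, adjusted p = 0.883) and Ube3a (0.0601, adjusted p = 0.591) lost their calls.

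Uba6, which encodes an activating enzyme of ubiquitin, fell by 0.72 on the log2 scale (adjusted p = 0.00142), and of 8 genes of the p97 unfoldase 2 rose (Nsfl1c and Ubxn1, 25.0%) and 1 fell (Nploc4, 12.5%). After the gene length correction Uba6 was still called (-0.50, adjusted p = 0.00442), Nsfl1c (adjusted p = 0.118), Ubxn1 (adjusted p = 0.351) and Nploc4 (adjusted p = 0.141) were not, and Vcp, the unfoldase itself, was (0.21, adjusted p = 0.0351). Among the genes of interferon response and peptide loading Tap2, Pdia3 and Calr rose, and after the correction Tap2 (0.48, adjusted p = 0.00164) and Pdia3 (0.42, adjusted p = 0.00108) were still called and Calr (0.23, adjusted p = 0.0653) was not. Irf1, a factor of the interferon response, gave 0.07 (adjusted p = 0.606) as counted and 0.10 (adjusted p = 0.505) after the gene length correction.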

How the data were processed

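RNA of 3 control and 3 neomycin pools was sequenced. The authors deposited 1 table of raw read counts per gene for all samples; per the labels and methods the reads were called with CASAVA 1.8, trimmed with Trimmomatic 0.23, aligned to mm10 with HISAT2 and counted with HTSeq. All value columns were matched to samples, 0 were left over, and 0 rows named no gene.

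Counts were filtered with filterByExpr, scaled by TMM and tested with edgeR 4.0.16 (quasi-likelihood, R 4.3.3), with Benjamini-Hochberg adjustment over 15988 genes. CPM values are TMM-scaled. Calls needed an adjusted p under 0.05, with a fold change over 1.5 as a second limit taken from the study. Exon lengths, overlaps and shared 50-base windows came from GENCODE M21 (mm10), which 99.2% of tested genes matched. The length correction removed a lowess trend (span 0.3) of each sample's log ratio against log length.

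Alternatives were DESeq2 1.42.0, limma-voom (limma 3.58.1), other scalings, no filter, a replicate block, leaving out each pool, and GC and length corrections. The correction by transcript length and the removal of members that share sequence were chosen after seeing the data. The edgeR test and the length correction were also tried on counts simulated from the means, library sizes and dispersions of these data. The outcome is not given here. The members, gene lists and motifs were chosen with earlier results of these data known. Values per sample were given for the catalytic subunits, for members past both limits and for the highest and lowest member of each class; others named were chosen after their values were seen. Precision is limited by 3 pools a group, at 50471116 to 66068108 reads. Some genes of the pathway lists are not reported here.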

Additional observations from a re-analysis of the deposited data

How the results depend on the processing

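Whether pools of the same number are paired was not settled, and the main test used no pairing. Deviations of same-numbered pools correlated at 0.17, 0.03 and 0.09. Control 1 and control 3 correlated best with their own number. For control 2 the correlation was 0.026 with neomycin 2 and 0.032 with neomycin 3. With a replicate block 35 members were higher and 2 lower, and all 27 called members kept the call, as they also did with DESeq2. Psmg2 alone passed 1.5-fold with DESeq2, RLE and upper quartile scaling (a count of 1 each). With total count scaling 2 members were lower, 21 were higher, and the medians were 0.10 for the cap and 0.31 for the activators. With the GC correction 1 was lower.

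With the gene length correction 7 members were higher and 1 lower, with medians of 0.0756 (all members), 0.0707 (core), 0.0223 (cap), 0.10 (activators), 0.22 (immunoproteasome) and 0.12 (core chaperones). With the replicate block added to it, 7 were higher and 1 lower, with medians of 0.0752, 0.0705, 0.0198, 0.10, 0.22 and 0.12. With the transcript length correction 6 were higher, with medians of 0.11 (all), 0.12 (core), 0.0368 (cap), 0.11 (activators) and 0.15 (core chaperones). Signs turned under the gene length correction, without and with the replicate block, for Psmb2 (-0.12 and -0.13), Psmb5 (-0.13 and -0.13), Psmc1 (-0.0194 and -0.0182), Psmc5 (-0.071 and -0.0729), Psmd14 (-0.0327 and -0.0324), Psmd3 (-0.0162 and -0.0165), Psmd7 (-0.0236 and -0.0246) and Psme4 (0.0505 and 0.0521). Under the transcript length correction they turned for Psmb2 (-0.0748), Psmb5 (-0.11), Psmc5 (-0.0181), Psmd2 (0.0133) and Psme4 (0.11). Beyond the construction of these corrections the cause was not tested.

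Leaving out each pool in turn gave 11 to 33 higher and 0 to 1 lower members, 0 to 4 higher members past 1.5-fold, and medians of 0.23 to 0.33 (all), 0.26 to 0.40 (core), 0.13 to 0.24 (cap), 0.36 to 0.43 (activators), 0.38 to 0.52 (immunoproteasome) and 0.40 to 0.55 (core chaperones). Psmd2 ran from -0.0499 to 0.0076, above 0 without control 3, and Psmf1 from -0.0356, without neomycin 1, to 0.14. The immunoproteasome share moved between 3.76% and 4.16% in control and between 4.005% and 4.22% in neomycin; without division by length it was 5.88% and 6.10%. Without members that share over 10% of windows the activator median was -0.16, since Psme2 and Psme2b then drop out, leaving Psme1, Psme3 and Psme4.

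Limits: 12 members share over 10% of windows with other genes and 10 overlap exons on the opposite strand. Psmb9 rests on 64 to 150 reads and has the largest standard error of any tested member (0.26).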
